A study of Mus musculus with 2 samples.

Results

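The aminoacyl-tRNA synthetases are the 38 genes, of 55487 in the deposited tables, whose symbols name an enzyme that joins an amino acid to its tRNA. They were chosen by symbol alone, and each symbol had 1 identifier. By textbook location, 21 serve the cytosol and 17 serve mitochondria. RNA was sequenced from 2 libraries of islet beta cells, purified by cell sorting from mice 2 months old. The genotype label reads MytF/F; Myt2F/F; Myt3F/F; RipCre, so both libraries carried floxed alleles of 3 Myt zinc-finger genes together with a Cre recombinase driven by the rat insulin promoter, whose recombination is limited to cells in which that promoter is active. Males and females were pooled. The title of library 2 calls it a duplicate of library 1. Nothing in the labels says whether other mice were used, so a p-value measures only the reads of these libraries, whose spread may be technical. Control cells were not analysed here, and nothing below compares mutant with control cells. The marker used for sorting is not given in the sources used here.

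A synthetase recognises its amino acid and its set of tRNAs and couples them at the cost of ATP, and the charged tRNA then feeds the ribosome. Cytosolic translation and mitochondrial translation use separate enzymes for most amino acids, all encoded in the nucleus. Gars and Kars, the glycyl and lysyl enzymes, supply both compartments, and Eprs joins the glutamyl and prolyl activities in 1 protein. Several cytosolic enzymes assemble with the scaffold proteins Aimp1, Aimp2 and Eef1e1 into the multi-synthetase complex. Many cytosolic synthetase genes are known targets of ATF4, the transcription factor of the integrated stress response, which beta cells use under secretory load.

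Libraries 1 and 2 held 50121771 and 39003197 counted reads. The genes named by the genotype, Myt1, Myt1l (also called Myt2) and St18 (also called Myt3), all kept reads: 77.6 and 65.4 CPM, 44.5 and 39.05 CPM, and 72.7 and 56.5 CPM in libraries 1 and 2. CPM is a read count scaled to the library total. Which exons the floxed alleles remove is not given in the sources used here, so these whole-gene counts do not check the deletion. All 9 beta-cell markers were detected, which here means at least 1 CPM in each library. Markers of other pancreatic cells were also counted. Their summed levels in libraries 1 and 2 were 938 and 718 CPM for 5 alpha-cell genes, 1653 and 1224 CPM for 4 delta-cell genes and 145 and 669 CPM for 14 acinar genes. The 2 PP-cell genes summed to 975 and 1211 CPM. The 4 ductal genes summed to 682 and 992 CPM, of which Spp1 alone had 659 and 967 CPM. The other ductal genes were Cftr (19.5 and 19.8 CPM), Krt19 (2.17 and 4.23 CPM) and Sox9 (0.479 and 0.718 CPM, under detection). The 4 endothelial, 4 mesenchymal and 4 immune markers each summed to at most 51.4 CPM. A bulk level cannot tell fewer cells of a type from less RNA per cell.

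All 38 synthetases were detected, and their summed share of counted reads was 0.267% (library 1) and 0.305% (library 2). Levels between genes are compared in TPM, the deposited value that divides a count by the merged exon length of its gene. The 21 cytosolic genes had a median of 46.2 ± 4.11 TPM (SD of the library medians, n = 2), against 14.8 TPM over the 13566 genes detected. The 17 mitochondrial genes had a median of 8.78 ± 0.316 TPM. The cytosolic median was 5.27 times the mitochondrial one, with 4.90 in library 1 and 5.82 in library 2. This ratio depends on the scale. It was 5.95 in CPM, and 3.89 when each count was divided by the length of the transcript with the longest coding sequence. By TPM, 20 of the cytosolic genes lay above the median of the detected genes, all but Tarsl2, and 4 of the mitochondrial genes did.

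**Figure D1:**
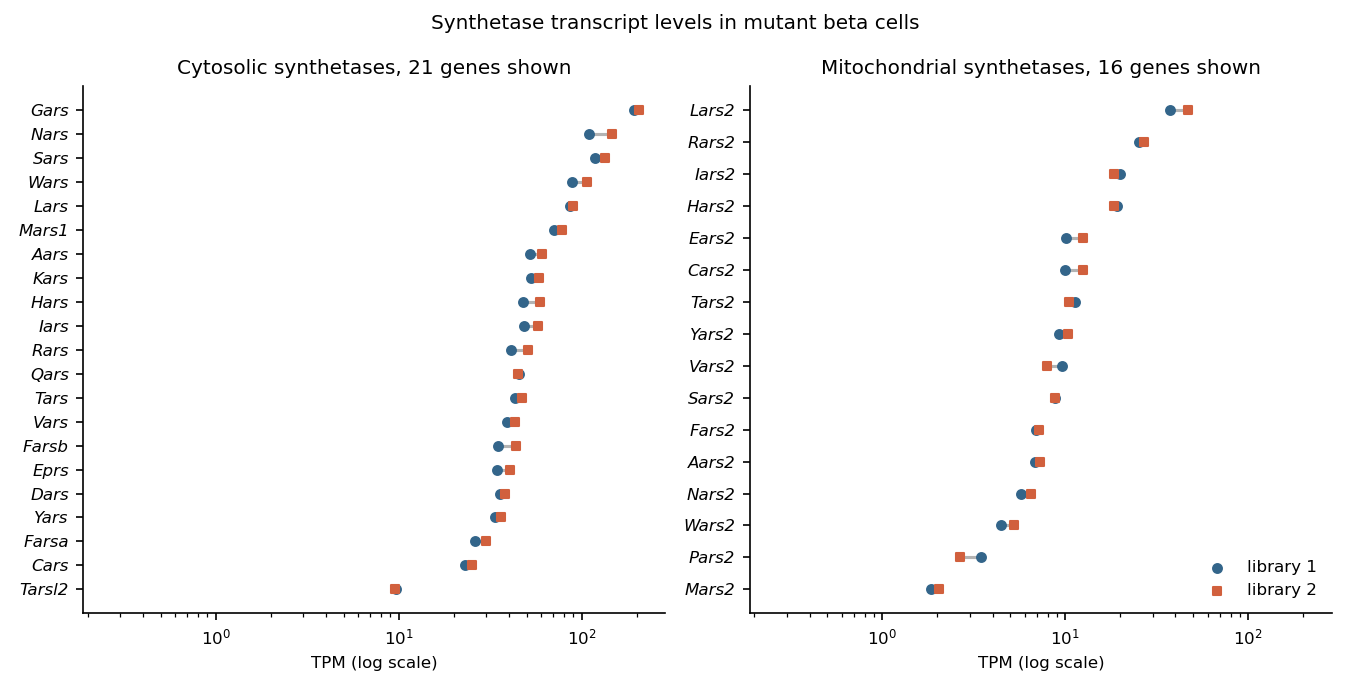
TPM of synthetases on a log axis, with circles for library 1 and squares for library 2 joined by a line. Gars stands highest among the cytosolic genes and Lars2 among the mitochondrial genes, and the libraries lie close together beside the spread between genes.

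Gars, the glycyl-tRNA synthetase, was the most abundant member by TPM. It stood at 194 TPM in library 1 and 206 TPM in library 2, a mean of 199.8 ± 8.20 TPM (SD, n = 2), higher than 97.4% of detected genes. As a share of reads it had 219.6 CPM in library 1, with an exact 95% Clopper-Pearson interval of 215.5 to 223.7 CPM. In GENCODE M21 (GRCm38), Gars (ENSMUSG00000029777) is a plus-strand gene of chromosome 6, spanning 55038007 to 55079500 in 17 merged exons. In both libraries its TPM was above that of every other synthetase. By CPM it was below Eprs and Sars in both libraries.

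The asparaginyl and seryl enzymes followed. Nars stood at 110 and 146 TPM, a mean of 128 ± 25.3 TPM (SD, n = 2). Sars, whose product also charges the tRNA on which selenocysteine is made, stood at 119 and 134 TPM, a mean of 126 ± 10.6 TPM. Their order turned between the libraries: the ratio of Sars over Nars was 1.08 in library 1, with an exact 95% counting interval of 1.05 to 1.11, and 0.916 (0.890 to 0.943) in library 2. Sars (ENSMUSG00000068739) is a minus-strand gene of chromosome 3, spanning 108424865 to 108445209. Next came Wars, the tryptophanyl enzyme, at 98.0 ± 12.9 TPM, Lars, the leucyl enzyme, at 87.9 ± 2.79 TPM and Mars1, the methionyl enzyme, at 74.2 ± 5.54 TPM.

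At the other end of the cytosolic class, Tarsl2 stood alone. This second threonyl synthetase gene had 9.67 and 9.53 TPM, a mean of 9.60 ± 0.101 TPM (SD, n = 2). Tars, the main threonyl enzyme, exceeded it 4.44-fold (4.17 to 4.74, exact 95% counting interval) and 4.96-fold (4.62 to 5.34). The cysteinyl enzyme Cars had 22.9 and 25.1 TPM, and Farsa, the catalytic subunit of the phenylalanyl enzyme, had 26.1 and 30.1 TPM. The remaining cytosolic genes, from Yars at 34.9 TPM to Aars at 56.6 TPM, formed a dense middle.

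The length used for scaling sets part of this order. The merged exons of Eprs span 18102 bases, while its transcript with the longest coding sequence has 4906. Eprs had the most reads of any synthetase by CPM, with 227 and 269 CPM, but was 16th of the cytosolic genes by TPM at 37.5 ± 4.26. Scaled by the single transcript it reached 83.2 and was 5th. On that scale, which is TPM-like, Sars (209) stood above Gars (158), with a Gars over Sars ratio of 0.778 and 0.732 in the 2 libraries against 1.64 and 1.54 on the deposited scale. Tarsl2 and Cars were the lowest cytosolic genes on both scales.

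Phenylalanyl-tRNA synthetase of the cytosol is built from equal numbers of a catalytic subunit, Farsa, and a second subunit, Farsb. Farsb stood at 34.8 and 43.6 TPM, above Farsa in both libraries. The Farsa over Farsb ratio was 0.751 (0.704 to 0.801, exact 95% counting interval) and 0.690 (0.645 to 0.737). With the single-transcript lengths the order turned, at 1.45 and 1.33. Which subunit transcript is more abundant therefore depends on the length chosen.

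The 8 enzymes of the multi-synthetase complex were close to each other in level. They ranged from Dars, the aspartyl enzyme, at 37.0 ± 1.82 TPM (SD, n = 2) to Lars at 87.9 TPM, a spread of 2.37-fold, around a median of 49.5 TPM. The 13 cytosolic genes outside the complex had a median of 45.1 TPM and a spread of 20.8-fold. By TPM the scaffold genes were lower than every enzyme of the complex: Aimp2 had 13.8 TPM, Aimp1 12.5 TPM and Eef1e1 5.93 TPM in the mean. With single-transcript lengths the highest scaffold level, 37.6, was next to the lowest enzyme level, 37.9. Between Dars and Lars stood Mars1 and Eprs, given above, and Kars at 55.6, Iars at 52.9, Rars at 46.2 and Qars at 45.2 TPM, the lysyl, isoleucyl, arginyl and glutaminyl enzymes.

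Of the cytosolic genes, 11 stand on a list of synthetases known from the literature as ATF4 targets (Aars, Cars, Eprs, Gars, Iars, Mars1, Nars, Sars, Tars, Wars and Yars). Their median was 56.6 ± 5.96 TPM (SD of the library medians, n = 2), against 43.1 ± 2.99 TPM for the 10 other cytosolic genes. The ranges overlapped, from 24.0 to 199.8 TPM on the list and from 9.60 to 87.9 TPM off it. Transcripts of the ATF4 pathway itself were present: each of 17 listed response genes passed detection, and their median level was 74.4 TPM. The highest by mean TPM were Atf3 (990 TPM), Atf4 itself (453 TPM) and Ppp1r15a (369.9 TPM), which encodes a subunit of the phosphatase that ends the response.

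ATF4 binds, with a C/EBP partner, a composite site known as CARE. The letters TGATGNAA were searched on both strands of RefSeq promoter windows (GRCm38.p6) that run from 250 bases before a start site to 50 after it. A window was found for 28 of the 38 synthetases, 14 cytosolic and 14 mitochondrial. Among those without one were Cars, Hars, Lars, Nars, Rars, Vars, Wars, Hars2 and Pars2. The letters occurred in 5 of the 14 cytosolic genes (Aars, Gars, Iars, Tars and Yars), all on the list of ATF4 targets, of which 8 had a window. They occurred in none of the 6 cytosolic genes off the list and in none of the 15 windows of mitochondrial genes. Of all 32851 windows in the table, 3.97% held them. The stricter letters TGATGCAA were in 4 of the synthetase windows and in 0.895% of all windows. A match describes these letters and is not evidence of binding, and a window without them says nothing about the factor.

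A match in each of the 5 genes is shown because the same letters occur in classical ATF4 genes. Each line is read 5′ to 3′ on the strand that carries TGATGNAA, whose 8 letters are in capitals, with 30 bases in all. Positions are counted from the RefSeq start site, negative before it, and the strand is that of the chromosome. For Aars, Iars, Tars and Yars this start lies inside the gene as GENCODE draws it. Aars also held the stricter letters TGATGCAA at −112 to −105 on the minus strand, a match not printed below.
Aars, 10 to 17, chr8:111033840-111033869, minus strand: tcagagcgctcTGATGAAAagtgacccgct
Iars, 8 to 15, chr13:49682126-49682155, minus strand: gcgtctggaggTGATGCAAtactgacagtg
Tars, −15 to −8, chr15:11399655-11399684, plus strand: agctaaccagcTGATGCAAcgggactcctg
Yars, 4 to 11, chr4:129189895-129189924, plus strand: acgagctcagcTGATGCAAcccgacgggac
Gars, −30 to −23, chr6:55037960-55037989, minus strand: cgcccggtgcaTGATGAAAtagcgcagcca

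For comparison, the same letters were found in 7 of the 16 genes of the ATF4 response list that had a window. Examples are Chac1, which encodes a glutathione-degrading enzyme, Atf3, a partner and target of ATF4, and Asns, the asparagine synthetase.
Chac1, −193 to −186, chr2:119351038-119351067, minus strand: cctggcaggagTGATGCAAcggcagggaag
Atf3, −110 to −103, chr1:191183425-191183454, plus strand: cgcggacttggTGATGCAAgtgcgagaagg
Asns, −23 to −16, chr6:7693214-7693243, minus strand: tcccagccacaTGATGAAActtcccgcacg

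Gars, the highest synthetase by TPM, carries its match close to the start. The 250 bases before that start are shown for context, on the plus strand, with the match in capitals as it reads on this strand.
Gars, chr6:55037751-55038000: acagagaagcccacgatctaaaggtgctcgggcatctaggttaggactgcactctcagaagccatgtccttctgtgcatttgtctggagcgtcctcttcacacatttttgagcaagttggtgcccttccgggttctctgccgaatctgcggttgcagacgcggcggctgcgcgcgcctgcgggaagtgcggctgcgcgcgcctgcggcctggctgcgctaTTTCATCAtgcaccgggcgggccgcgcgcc

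Levels of cytosolic genes with and without the letters overlapped. The 5 cytosolic genes with a match ranged from 34.9 TPM (Yars) to 199.8 TPM (Gars), with a median of 52.9. The 9 cytosolic genes with a window and no match ranged from 9.60 to 126 TPM, with a median of 39.2. With single-transcript lengths the medians stood in the other order, at 42.9 with a match and 51.6 without.

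Among mitochondrial synthetases, Lars2, the leucyl enzyme, was the most abundant. It stood at 37.2 and 46.7 TPM, a mean of 42.0 ± 6.73 TPM (SD, n = 2). The gene (ENSMUSG00000035202) is on the plus strand of chromosome 9, spanning 123366927 to 123462666. Rars2, the arginyl enzyme, had 25.4 and 27.0 TPM. Lars2 exceeded it 1.46-fold (1.38 to 1.55, exact 95% counting interval) and 1.73-fold (1.62 to 1.85) in the respective libraries. Behind these came Iars2, the isoleucyl enzyme, with 19.9 and 18.5 TPM and Hars2, the histidyl enzyme, with 19.2 and 18.6 TPM. The Iars2 over Hars2 ratio was 1.04 (0.979 to 1.11) and 0.997 (0.928 to 1.07), so this pair was not separated beyond counting error. By TPM only these 4 mitochondrial genes exceeded the median of all detected genes. With single-transcript lengths 7 did: Lars2 (71.9), Cars2 (25.7), Rars2 (23.4), Tars2 (18.9), Iars2 (18.8), Ears2 (17.1) and Hars2 (14.6), against a median of 13.5.

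Most mitochondrial synthetases lay far lower. Mars2, the methionyl enzyme, was lowest of all 38 by TPM, with 1.83 and 2.04 TPM. Pars2, the prolyl enzyme, had 3.48 and 2.66 TPM and the fewest reads, 196 and 118. Both were also the lowest on the single-transcript scale. For Mars2 that scale divides by the same length, 11294 bases in 1 exon, so it is not a separate check of its rank. In reads alone Mars2 (7.52 and 8.46 CPM) stood above Pars2 (3.91 and 3.03 CPM). Between them and the leading genes stood, among others, Ears2 (11.3), Cars2 (11.2), Tars2 (10.9), Yars2 (9.79), Vars2 (8.78), Sars2 (8.77), Fars2 (7.05), Aars2 (7.03), Nars2 (6.13) and Wars2 (4.84 TPM in the mean).

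Mitochondria have no glutaminyl synthetase of their own: glutamyl-tRNA is made first and then amidated by the enzyme that Gatb, Gatc and Qrsl1 encode. All 3 subunit genes were detected, at 5.55, 42.3 and 6.93 TPM in the mean. Mtfmt, which formylates the initiator methionyl-tRNA that Mars2 supplies, had 8.78 TPM, above the level of Mars2. The mitochondrial elongation factor genes Tufm and Tsfm had 23.1 and 16.6 TPM.

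Each of the 17 mitochondrial synthetases was set against the cytosolic gene for the same amino acid, with Eprs as partner of both Ears2 and Pars2 and Farsa as partner of Fars2. In all 17 pairs the cytosolic gene was higher, and the exact 95% counting interval of the ratio excluded 1 in both libraries. The median ratio was 4.14. By TPM the widest pair was methionine, where Mars1 exceeded Mars2 38.3-fold in each library. Next were Nars over Nars2 at 20.7-fold, Wars over Wars2 at 20.2-fold and Sars over Sars2 at 14.3-fold (mean log2 ratios 4.37 ± 0.16, 4.34 ± 0.02 and 3.84 ± 0.12, SD, n = 2). Eprs over Pars2, at 12.3-fold by TPM, was the widest pair with single-transcript lengths (44.6, beside 44.3 for methionine) and in reads alone (71.8, beside 11.6).

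**Figure D2:**
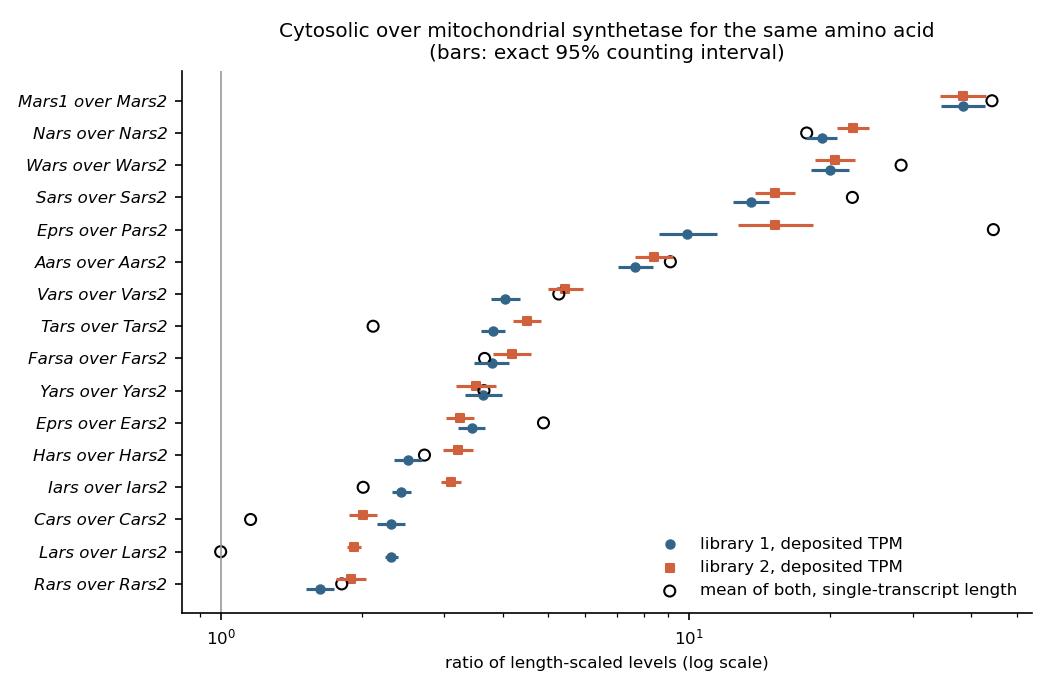
Ratio of the cytosolic over the mitochondrial synthetase for the same amino acid, on a log axis, per library with exact 95% counting intervals, and with single-transcript lengths as open circles. All filled points lie above 1, from the arginyl pair (1.75 in the mean) to the methionyl pair (38.3), and the open circle of the leucyl pair lies at 0.998.

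By TPM the closest pairs were arginine, leucine and cysteine. Rars exceeded Rars2 1.63-fold (1.52 to 1.74, exact 95% counting interval) and 1.89-fold (1.76 to 2.04) in libraries 1 and 2. Lars exceeded Lars2 2.31-fold (2.24 to 2.38) and 1.92-fold (1.86 to 1.99). Cars exceeded Cars2 2.31-fold (2.16 to 2.47) and 2.01-fold (1.88 to 2.16). The leucyl pair rests on the length: the merged exons of Lars2 span 11089 bases and its single transcript 3894. With the latter the order turned between the libraries, at 1.09 (1.06 to 1.13) and 0.911 (0.882 to 0.942), around a mean of 0.998. In reads alone the leucyl order turned as well, at 1.12 (1.08 to 1.15) and 0.931 (0.901 to 0.962), around a mean of 1.02. The cysteinyl pair also came closer with single-transcript lengths, at 1.24 and 1.08. In reads alone the histidyl (1.62) and isoleucyl (1.63) pairs were closer than the cysteinyl (1.96) and arginyl (2.04) pairs. Without length scaling or with single-transcript lengths, 16 of the 17 pairs kept the cytosolic gene higher in both libraries.

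Some counts are uncertain because exons overlap other genes and the library kit named in the labels does not mark strand. Of the 38 genes, 15 shared exon bases with another gene, 4 of them over more than 10% of their merged exons. Iars2 overlapped by 24.2%, mostly with Rab3gap2 on the other strand, which had 173 and 172 CPM beside 64.3 and 60.4 CPM for Iars2. Aars overlapped by 15.1%, mostly with Exosc6 on its own strand, which was counted at 0 reads in both libraries. How reads shared by several genes were counted is not given in the sources used here. This 0 therefore does not show that Exosc6 was silent or that the count of Aars was unaffected. Fars2 overlapped by 10.7%, mostly with Nrn1, which had 0.0399 and 0.0513 CPM. Hars and Hars2 lie head to head on chromosome 18 and share 7.97% and 4.56% of their merged exons, and Mars1 shares 1.99% with Ddit3, which encodes the stress factor CHOP. A search of 50-base words in GENCODE transcripts found that Iars shared 7.15% of its words with the gene Gm4849.

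Between the libraries, the cytosolic synthetases stood slightly but broadly higher in library 2. The reads of each gene were set against the library totals in an exact binomial test (two-sided), and p-values were adjusted by Benjamini-Hochberg over the 20681 genes that had at least 10 reads in sum. With adjusted p under 0.05 and no minimum ratio, 19 of the 21 cytosolic genes were higher in library 2 and 0 were higher in library 1. Of all genes tested, 13.4% were higher in library 2 and 19.0% in library 1 by this rule. Among 7308 genes whose mean reached 20 CPM, where the test has more reads to work with, the shares were 23.5% and 30.7%. The cytosolic median log2 ratio of library 2 over library 1 was 0.18, a 1.13-fold difference, beside −0.03 over all detected genes. The test compares the reads of 2 libraries of the same genotype, not conditions.

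The size of this shift was small in every member. With a 2-fold minimum ratio 0 of the 38 synthetases were called, beside 4.31% of the genes tested, and with 1.5-fold 0 were called, beside 8.05%. Those shares include genes under detection, while all 38 synthetases were detected. Of the 13566 genes detected, 130 were called higher in library 2 and 105 higher in library 1 at 2-fold. At 1.5-fold these counts were 377 and 504. With so few calls among detected genes, the 0 is not a trait particular to the synthetases. The widest ratio among the cytosolic genes was that of Nars, with 174 and 233 CPM, a log2 ratio of 0.42 (95% counting interval 0.38 to 0.47) and an adjusted p of 3.34e-83 by the exact test. Next among the cytosolic genes were Farsb, Hars and Rars at 0.34, 0.33 and 0.32. Qars (108.0 and 108.8 CPM, log2 ratio 0.01, interval −0.05 to 0.07) and Tarsl2 (23.7 and 23.6 CPM, log2 ratio −0.00, interval −0.13 to 0.12) did not pass the test.

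**Figure D3:**
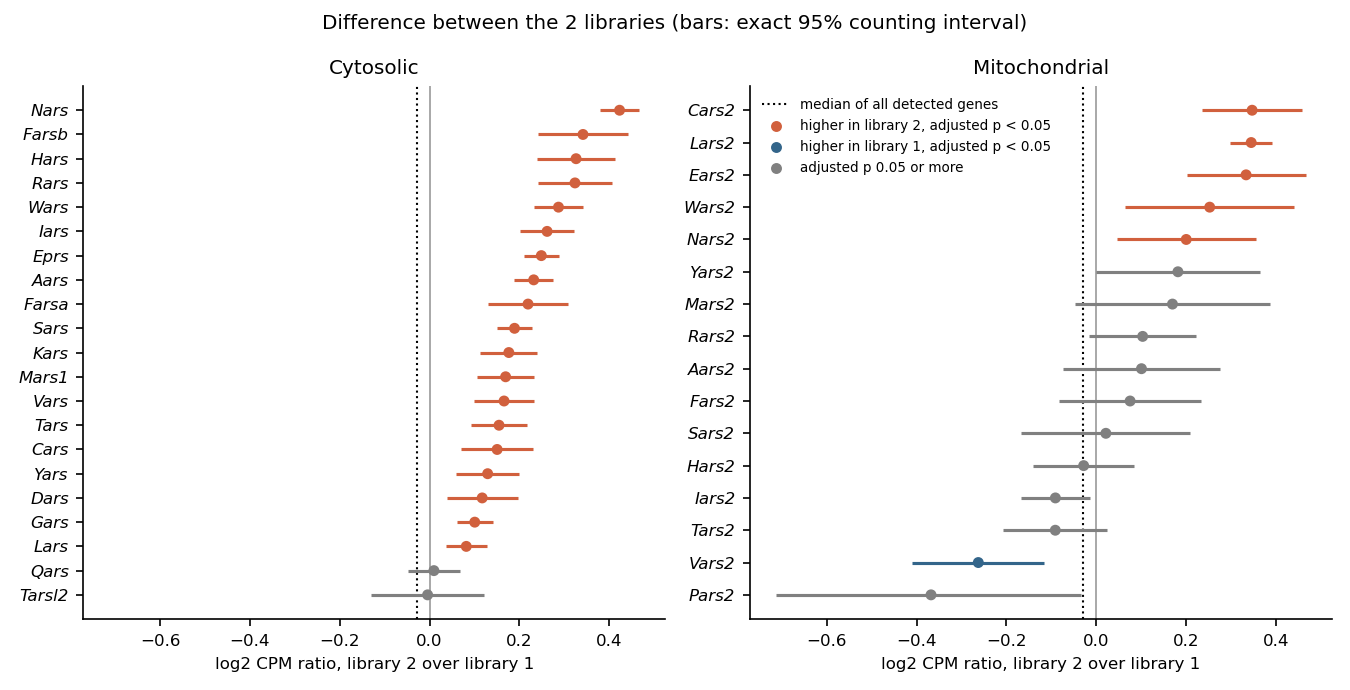
Log2 CPM ratio of library 2 over library 1 for synthetases, each with its exact 95% counting interval, coloured by the adjusted p of the exact binomial test, with the median of all detected genes dotted at −0.03. Of the 21 cytosolic genes 19 are coloured as higher in library 2, and the mitochondrial genes lie on both sides of 0.

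The mitochondrial genes lay on both sides of 0. By adjusted p alone 5 of 17 were higher in library 2, 1 was higher in library 1 and 11 did not pass, around a median log2 ratio of 0.10. Over all genes tested the shares by this rule were 13.4% and 19.0%, and 23.5% and 30.7% among genes whose mean reached 20 CPM. Those higher in library 2 were Cars2 (log2 ratio 0.35), Lars2 (0.35), Ears2 (0.33), Wars2 (0.25) and Nars2 (0.20). Vars2, the valyl enzyme, was higher in library 1, with 19.1 and 15.9 CPM, a log2 ratio of −0.26 (95% counting interval −0.41 to −0.12) and an adjusted p of 0.00203 by the exact test. Pars2 had the lowest ratio, −0.37, and did not pass, with an adjusted p of 0.0841 on the fewest reads. Whether the classes differ from each other was not tested, and the fewer reads of mitochondrial genes leave wider intervals.

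By adjusted p alone, all 11 synthetases on the ATF4 list were higher in library 2, with a median log2 ratio of 0.19. So were 8 of the 10 other cytosolic genes, with a median of 0.17. Over all genes tested this rule called 13.4% higher in library 2 and 19.0% higher in library 1. Among genes whose mean reached 20 CPM the shares were 23.5% and 30.7%. Genes with and without the CARE letters had medians of 0.15 and 0.18. In the ATF4 response list 12 of 17 genes were higher in library 2 by adjusted p, 2 (Vldlr and Ppp1r15a) were higher in library 1 and 3 did not pass, with a median of 0.16. Its genes past 1.5-fold were Psat1 (6.52 and 10.7 CPM), an enzyme of serine synthesis, Nupr1 (156 and 241 CPM), a stress-induced nuclear protein, and Eif4ebp1 (22.1 and 33.3 CPM), an inhibitor of cap-dependent initiation. Chac1, Sesn2 and Trib3 had log2 ratios of −0.09, −0.02 and 0.14 and did not pass.

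Wars is the synthetase known to be induced by interferon gamma. It had 111 and 136 CPM, a log2 ratio of 0.29 (95% counting interval 0.23 to 0.34), which was the 5th highest of the cytosolic genes. Of 20 listed genes induced by interferon gamma, 18 could be tested, with a median log2 ratio of 1.67. By adjusted p alone 17 were higher in library 2, beside 13.4% of all genes tested. Among them Irf1, the interferon-regulated transcription factor, had 45.5 and 89.5 CPM and Gbp2 had 1.54 and 26.6 CPM. The log2 ratios of these 18 ran from 0.29 (Tapbp) to 4.10 (Gbp2), and Socs1, at 0.40, did not pass the test.

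Acinar markers moved in the same direction. All 14 were higher in library 2 by adjusted p, beside 13.4% of all genes tested, with a median log2 ratio of 2.13. Their part in the synthetase shift was not tested. Of 6 elongation factor genes, 0 passed adjusted p as higher in library 2 and 3 as higher in library 1, beside 13.4% and 19.0% of all genes tested. The other 3 (Tufm, Tsfm and Gfm1) had log2 ratios of 0.16, 0.07 and 0.06 and did not pass. Higher in library 1 were Eef1a1 (2101 and 1959 CPM), which delivers charged tRNA to the ribosome, Eef2 (2172 and 1827 CPM), which moves the ribosome along, and Eef1a2 (4.49 and 1.46 CPM), a tissue-restricted form of Eef1a1. Of the complex scaffolds, Aimp2 and Eef1e1 were higher in library 2 by adjusted p, with log2 ratios of 0.26 and 0.32. Aimp1 had 0.05 and did not pass.

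**Figure D4:**
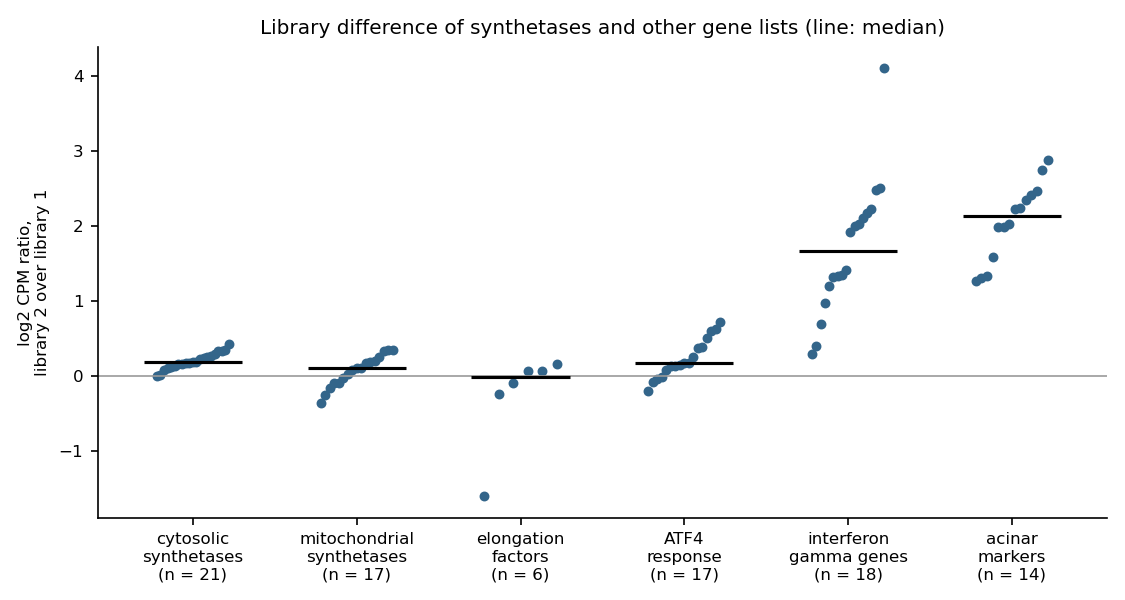
Log2 CPM ratio of library 2 over library 1 for each tested gene of 6 lists, with the median as a line. The cytosolic synthetases (median 0.18) lie in a narrow band just above 0, beside wider ranges for the interferon gamma genes (median 1.67) and the acinar markers (median 2.13).

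Last, the level of each cytosolic synthetase was set against the use of its amino acid. Codons of the longest coding sequence of each of 21550 genes were weighted by TPM, which covered 93.5% of the summed TPM. Genes were not filtered by chromosome, and all codons were read with the standard code. Genes encoded in mitochondrial DNA, whose translation uses mostly separate enzymes, were thus not excluded, and their part in the shares was not tested. Leucine had the largest share of codons, 10.6%, and tryptophan the smallest, 1.15%. Across the 20 amino acids, Pearson's r between codon share and log2 TPM of the synthetase was 0.21 and Spearman's rho was 0.17, as a description without a test. All points come from the same libraries, and Eprs stands for 2 amino acids. By TPM, Wars had the most transcript per share of codons, with 98.0 TPM for 1.15% of codons, and Eprs the least, with 37.5 TPM for 7.67% of codons as glutamate alone. With single-transcript lengths Wars still had the most, Eprs had 10.8 per percent of codons and Vars the least, with 5.57. Without the insulin genes in the codon count r was 0.23. The value moved with the scale of the synthetase level, to 0.56 with CPM and 0.32 with single-transcript lengths, and to 0.13 without Gars.

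**Figure D5:**
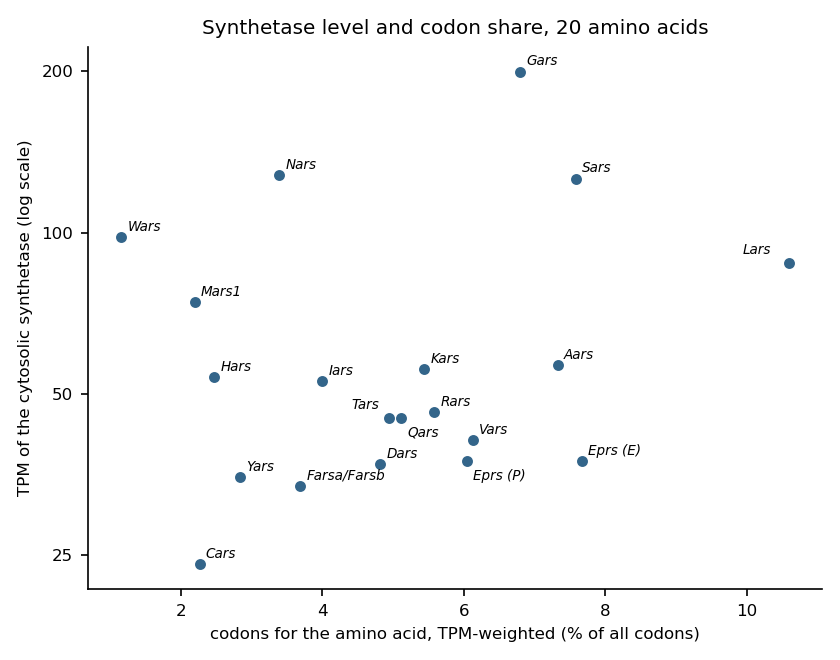
TPM of the cytosolic synthetase (log axis) against the TPM-weighted share of codons for its amino acid, 1 point per amino acid, with Eprs shown for glutamate (E) and proline (P). Points scatter widely, with r at 0.21, from Wars at 1.15% of codons to Lars at 10.6%.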

How the data were processed

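Sorted beta cells of 1 group (2 libraries) were sequenced. The authors deposited, per the file headers, a raw read count, a TPM value and a CPM value for each of 55487 genes. Tools are listed in the submitters' processing notes as featureCounts 2.0.2, STAR 2.7.8a and cutadapt 2.10, with the build GRCm38.p6. The sources used here do not give strand settings or the handling of reads that overlap several genes. For all 38 synthetases the length implied by the deposited TPM equalled the merged exons of GENCODE M21.

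Counts were tested between libraries with an exact binomial test (SciPy 1.17.1, 0.5 read added to ratios), adjusted over all genes with 10 or more reads summed. A check on simulated counts covered large changes called with the 2-fold minimum ratio, with counting noise only. It does not check the rule of adjusted p alone. edgeR's quasi-likelihood test needs a second group and was not run. The libraries differed beyond sampling noise, with 6699 of 20681 genes past adjusted p under 0.05, and were kept as 2 samples. TMM (edgeR 4.0.16) and DESeq2 1.42.0 size factors gave other scalings. Ratios between genes carry exact 95% intervals. Intervals cover counting error only, since PCR reads lacking molecular identifiers can be copies of 1 molecule. A count of 0 allows up to 3 reads, or 0.0599 and 0.0769 CPM.

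Codon shares came from GENCODE coding sequences instead of the RefSeq proteins first planned, and the planned search of protein signatures was not run. The single-transcript scale uses the transcript with the longest coding sequence. Members, gene lists and tests were chosen with earlier results of these data known. Genes named in full were the 3 highest and 3 lowest by TPM of each class, those past 1.5-fold, those with uncertain counts, both phenylalanyl subunits, and of other lists the highest or called genes. A few items that this rule covers are not reported here, though counts and medians include them. Examples of promoters, the closest and widest pairs and the other ratios were chosen after their values were seen.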

Additional observations from a re-analysis of the deposited data

How the results depend on the processing

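The median level of cytosolic synthetases was 45.3 to 51.1 TPM in single libraries, 92.8 in CPM and 44.6 with single-transcript lengths. The mitochondrial median was 8.79 to 9.23 TPM in single libraries, 15.6 in CPM and 11.5 with single-transcript lengths. The single-transcript scale, the rule of adjusted p alone, Farsb as partner and the correlation without Gars were chosen after seeing the data. At 5 CPM, 21 cytosolic and 16 mitochondrial genes were detected, Pars2 being lost. With no minimum ratio, 19 cytosolic and 6 mitochondrial genes were called, against 0 and 0 at 2-fold or 1.5-fold and under every scaling and filter run. TMM, DESeq2 and insulin-free scaling moved the median of all genes tested by at most 0.025 on the log2 scale and gave 21 cytosolic genes above 0 in place of 20. Of all genes, 892 were called at 2-fold, 1664 at 1.5-fold, 6699 with no minimum and 356 once genes below a mean of 1 CPM were left out. Pearson's r with codon share was 0.19 to 0.23 in single libraries, 0.56 with synthetase CPM, 0.32 with single-transcript lengths and 0.13 without Gars; the cause was not tested. No paired analysis was possible because there is 1 group. Depth limits the mitochondrial genes most, with 118 reads for Pars2 in library 2.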
